A study of Mus musculus with 9 samples.

Results

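The histone genes examined here comprised 77 of the 52459 gene symbols quantified in the series. They were chosen by name. Of them, 70 were symbols of the Hist1 to Hist4 clusters, which encode the histones H1, H2A, H2B, H3 and H4. The other 7 were variants that the name rule listed as replication-independent (H1f0, H2afx, H2afz, H2afv, H2afy, H3f3a and H3f3b). The samples were 9 RNA-Seq libraries of NMuMG cells, an epithelial line from mouse mammary gland grown with serum and insulin, each stably transfected with a pBICEP-CMV-2-based plasmid and selected with G418 as a pool. Of these, 3 libraries came from mock cells (empty plasmid), 3 from cells with the long non-coding RNA EPR (gene symbol BC030870) under the CMV promoter, and 3 from cells with EPRSTOPE, the same RNA with an early stop codon in its small open reading frame. The comparisons ask how the expressed RNA acts with and without the peptide that this frame encodes. Estimated counts assigned to genes ranged from 5972457 to 11876435 per library. The EPR gene itself had estimated counts of 0, 0 and 2 in mock, 271, 214 and 256 in EPR, and 28, 39 and 33 in EPRSTOPE libraries, so both sets of transfectants carried it and EPR cells more. The cells are described as biological triplicates, but nothing says whether the libraries of a group came from separate transfectant pools, so p-values measure only the spread between these libraries.

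Core histones H2A, H2B, H3 and H4 form the protein spool around which DNA is wound, and the linker histone H1 binds where DNA enters and leaves it. The clustered genes are active mainly in S phase, when new DNA has to be packaged. Most of their mRNAs have no introns and, in place of a poly(A) tail, end in a stem-loop that is bound by the stem-loop binding protein Slbp. Variant genes lie elsewhere in the genome, most of them make polyadenylated mRNA, and they are also used outside S phase. In such bulk libraries, fewer cells of a kind and less RNA per cell cannot be told apart.

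The stem-loop was searched by its structure, a stem of 6 base pairs starting with GG around a loop of 4 bases starting with TT, on the sense strand of each Gencode transcript. It was found in 45 of the 76 members whose transcripts could be searched (44 clustered genes and H2afx) and in 0.245% of 50650 other symbols. The 16-base form of the H1 gene Hist1h1c below was held by 26 members. The following sites, with the stem-loop in capitals and 5 bases on either side, are shown because they mark the mRNAs whose levels are described next. H2afx was the only one of the variants searched whose transcript held a stem-loop.
Hist1h1c: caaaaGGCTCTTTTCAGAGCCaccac
Hist1h3c: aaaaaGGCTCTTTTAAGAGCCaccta
Hist4h4: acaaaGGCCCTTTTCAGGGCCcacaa
H2afx: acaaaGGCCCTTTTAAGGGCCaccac
Many of the other models end at or near the stop codon, so the lack of a match there says nothing about the mRNA.

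The clustered histone mRNAs were much lower in both kinds of transfectant. Their summed level, in TMM-normalised CPM (counts of a gene scaled to a fixed library total), was 6389, 8961 and 9097 in the mock libraries, 2234, 1928 and 1884 in the EPR libraries and 1515, 1718 and 1528 in the EPRSTOPE libraries. The groups did not overlap, and the mock mean of 8149 ± 1526 (SD, n = 3) was 4.04 times the EPR mean of 2015 ± 191 and 5.13 times the EPRSTOPE mean of 1587 ± 114. As a share of all estimated counts, clustered genes took 0.849% ± 0.139 in mock, 0.199% ± 0.0165 in EPR and 0.152% ± 0.0105 in cells with EPRSTOPE. The summed level of the 7 variants moved far less: it was 1409 ± 83.7 CPM for mock cells, 1202 ± 29.5 for EPR and 1086 ± 35.5 for EPRSTOPE. The mock library with the fewest counts, number 203, had the lowest clustered sum of its group. Without it, the log2 ratio of the clustered sums went from -2.02 to -2.16 for EPR against mock, so the direction did not rest on that library.

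**Figure D1:**
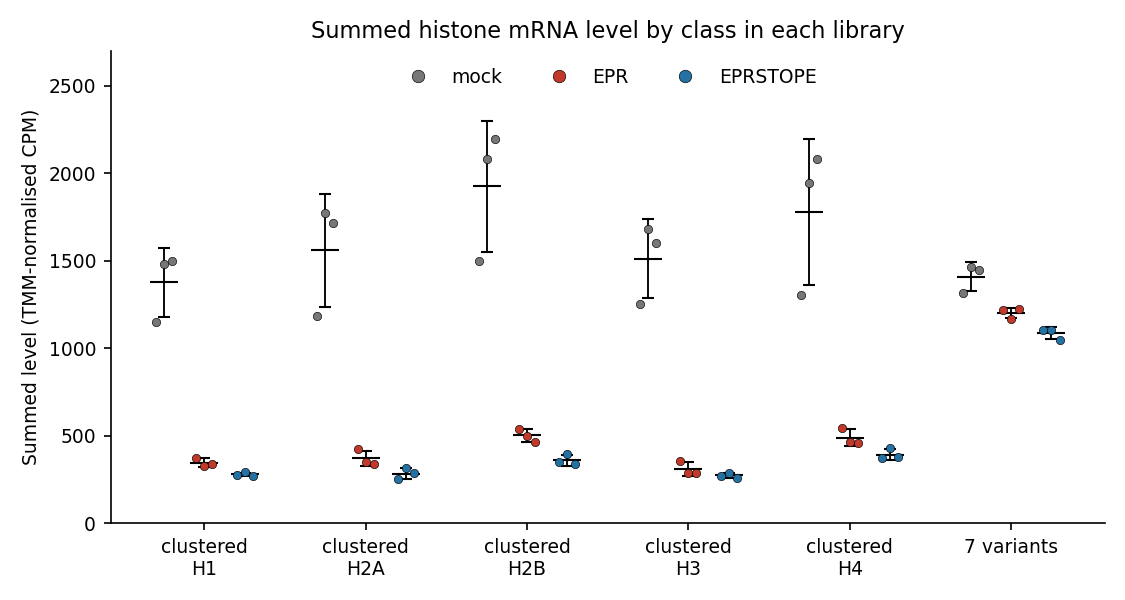
Summed level (y axis, TMM-normalised CPM, linear from 0) of the clustered genes of each histone class and of the 7 variants (x axis). Each point is a library, the bar is the group mean and the whisker 1 SD (n = 3), and in all 5 clustered classes every mock point lies above every EPR and EPRSTOPE point.

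All 5 classes took part. For H1, the mock mean of 1377 ± 197 CPM was 3.99 times the EPR mean and 4.95 times the EPRSTOPE mean. The corresponding ratios were 4.21 and 5.5 for H2A, 3.84 and 5.35 for H2B, 4.87 and 5.54 for H3, and 3.64 and 4.53 for H4. Since counts of genes of unlike length cannot be set against each other, the make-up of the pool was read in TPM, a unit that also corrects for transcript length. In TPM, H4 took 22.6% ± 2.07 of the clustered pool in mock, 27.1% ± 0.343 in EPR and 27.8% ± 1.02 in cells with EPRSTOPE. The H3 share was 18.4% ± 1.22, 15.1% ± 0.911 and 17.5% ± 0.644 in the same order. The H2A share was 24.8% ± 0.357 in mock, 22.8% ± 0.453 in EPR and 22.2% ± 1.47 with EPRSTOPE, every transfectant library lying below every mock library. The H1 share differed between groups by less than the spread within them. The H2B share was 28.9% ± 0.826 in mock, 29.7% ± 1.59 in EPR and 27.2% ± 1.04 with EPRSTOPE, and the groups overlapped.

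Gene by gene, a change was called when the Benjamini-Hochberg adjusted p was below 0.01 and the change exceeded 0.5 on the log2 scale, in edgeR's quasi-likelihood test over all 15370 genes that passed the filter on low counts (at least 1 CPM in at least 3 libraries). Of the 70 clustered genes, 62 passed this filter. With EPR, 58 of them fell against mock and 0 rose, with a median log2 fold change of -2.03 beside -0.01 over all genes tested. Among all genes tested, 12.9% fell and 15.2% rose in this comparison. With EPRSTOPE, 59 of the 62 fell and 0 rose, with a median of -2.46 beside -0.04, where 12.4% of all genes tested fell and 15.6% rose. Both comparisons use the same mock libraries. The 8 clustered genes below the filter were Hist1h1t, Hist1h2aa, Hist1h2aj, Hist1h2ao, Hist1h2ba, Hist1h4m, Hist2h3c1 and Hist3h2bb-ps, of which Hist1h2aj and Hist3h2bb-ps are annotated as pseudogenes. In this group, Hist2h3c1 was listed at 0 in every library, and the testis-type genes Hist1h1t, Hist1h2aa and Hist1h2ba never exceeded 6 counts.

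**Figure D2:**
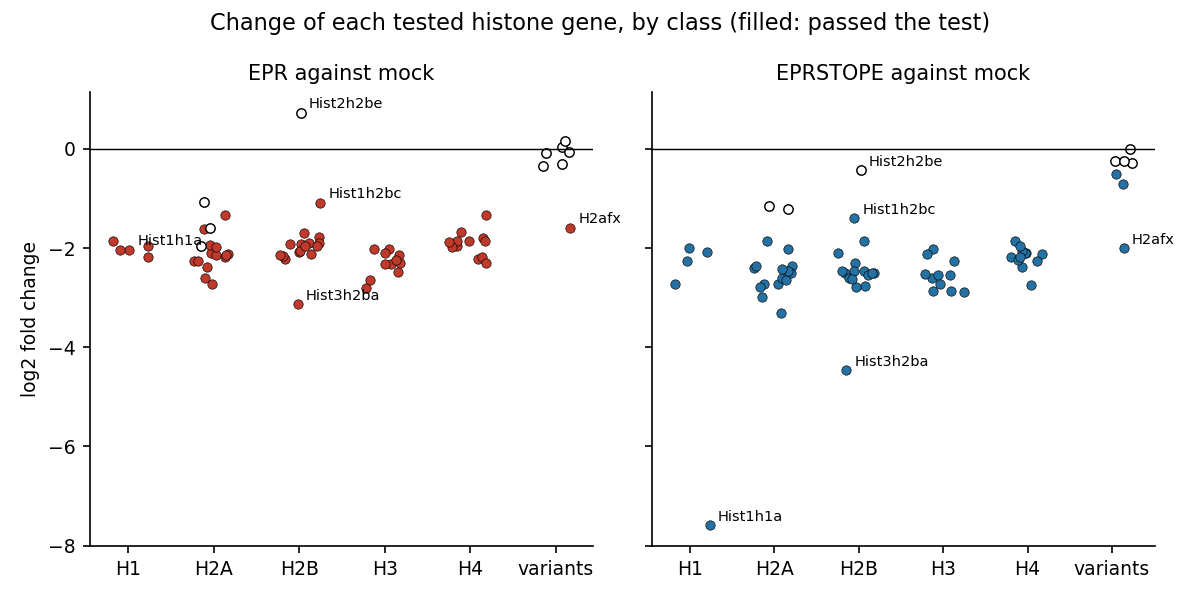
Fitted log2 fold change (y axis) of the 69 histone genes tested, by class (x axis), for EPR against mock and EPRSTOPE against mock. Filled points passed the test and open points did not. The clustered genes gather near -2 and below, most variants near 0, and Hist1h1a lies at -7.59 with EPRSTOPE.

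The genes of a class are close copies, and reads that match several of them are divided by the quantification. Only 27 of the 70 clustered genes had at least 50% of their 31-base words unshared with another symbol. Among the 23 of these that were tested, 22 fell with EPR (median log2 fold change -1.96) and 22 with EPRSTOPE (median -2.19). Among the 39 tested genes with fewer unshared words, 36 and 37 fell (medians -2.12 and -2.54). Some pairs exchanged counts between libraries. Hist2h2aa2 had 34.4, 0 and 57.4 CPM in the EPRSTOPE libraries while its twin Hist2h2aa1 had 25.8, 87.6 and 12.5 CPM. Neither of these H2A genes passed the test with EPR (adjusted p = 0.0308 and 0.0441), and only Hist2h2aa2 passed it with EPRSTOPE. Their sum was 226, 347 and 345 CPM in mock, 101, 84.7 and 73.1 in EPR and 60.1, 87.6 and 70 in EPRSTOPE libraries, with no overlap between mock and the others. The same held for the H4 pair Hist1h4m and Hist1h4n, whose sum went from 297 ± 89.3 CPM in mock to 79.4 ± 8.27 and 63.4 ± 3.39. Single values of such genes are uncertain, and class sums are not open to exchange within the class.

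Among core histones, the H3 genes gave the lowest median with EPR, -2.30 over 11 genes tested, all of which fell. Hist2h3b had 171, 212 and 194 CPM in mock, 36.6, 28.4 and 26.8 in EPR and 29, 28.1 and 30.4 in EPRSTOPE libraries. The mock values stood clear of the others, with a log2 fold change of -2.65 ± 0.11 (SE) with EPR and -2.72 ± 0.12 with EPRSTOPE, but none of its 31-base words were unshared. Hist1h3a fell by 2.81 ± 0.17 and 2.88 ± 0.17 on the log2 scale, and Hist1h3b and Hist1h3h, the other abundant H3 genes, fell by 2.32 and 2.10 with EPR. All 12 H4 genes tested fell in both comparisons, with medians of -1.87 and -2.15. Hist1h4d, an H4 gene with 85.3% unshared words, had 229, 334 and 338 CPM in mock, 96.9, 83 and 79.1 in EPR and 60.3, 67 and 61.1 in EPRSTOPE libraries. Its log2 fold changes were -1.80 ± 0.13 and -2.26 ± 0.14. Hist1h4h and Hist1h4n fell by 1.97 and 1.86 with EPR.

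Of the 17 H2A genes tested, 14 fell with EPR and 15 with EPRSTOPE, with medians of -2.13 and -2.46. The abundant Hist1h2ai and Hist1h2ap fell by 2.39 and 2.27 on the log2 scale with EPR and by 2.72 and 2.36 with EPRSTOPE. Hist1h2al, which lies alone on chromosome 13 (51202727 to 51203065, minus strand, GRCm38), away from both Hist1 blocks, is annotated as a processed pseudogene and has 18.1% unshared words. Its fitted fall was 2.60 ± 0.14 and 2.99 ± 0.15, but reads of other H2A genes can be assigned to it. Hist1h2an fell by 2.73 with EPR, and Hist1h2ah by 3.31 with EPRSTOPE, each with few unshared words (11% and 7.47%). Hist2h2ab, at 5.23 ± 1.44 CPM in mock, did not pass either test.

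Among the 17 H2B genes tested, 16 fell in each comparison, with medians of -1.95 and -2.50. Hist2h2bb, Hist1h2bg and Hist1h2bk, the most abundant in CPM, fell by 2.14, 1.92 and 1.89 on the log2 scale with EPR and by 2.62, 2.29 and 2.46 with EPRSTOPE. The scarce Hist3h2ba had 2.17, 3.9 and 5.37 CPM in mock, and its EPR and EPRSTOPE values reached at most 0.524 CPM, where few counts stand behind each value. A pair of H2B genes stood apart and were singled out after their values were seen. Hist2h2be was the only clustered gene with a fitted increase, 0.73 ± 0.29 with EPR (adjusted p = 0.0582, not called). Its levels were 1.71, 1.69 and 2.03 CPM in mock, 2.79, 3.16 and 3.18 in EPR and 1.02, 1.49 and 1.5 in EPRSTOPE libraries, so the EPR libraries lay above both other groups. Hist1h2bc fell least among the clustered genes called, by 1.08 ± 0.23 with EPR and 1.40 ± 0.24 with EPRSTOPE. Neither transcript model holds the stem-loop, although the models run to 2620 and 1156 bases. The median log2 fold change with EPR was -1.99 over the 40 tested genes with one and -2.12 over the 22 without.

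All 5 clustered linker histone genes tested fell in both comparisons, and Hist1h1a, which encodes an H1 subtype known from dividing cells, was nearly lost with EPRSTOPE. Hist1h1c had 290.5, 378 and 358 CPM in mock, 101, 85.4 and 96.7 in EPR and 83.7, 85.6 and 87.2 in EPRSTOPE libraries, a log2 fold change of -1.86 ± 0.10 and -2.00 ± 0.10. Hist1h1e and Hist1h1d fell by 2.03 and 1.96 with EPR and by 2.25 and 2.09 with EPRSTOPE. Hist1h1a (chromosome 13, 23763666 to 23764406, plus strand, GRCm38) had estimated counts of 455, 851 and 1068 in mock, 237, 155 and 218 in EPR, and 2, 8 and 0 in EPRSTOPE libraries. Its mRNA was thus nearly undetected in each EPRSTOPE library, while the EPR libraries kept between 19.6 and 20.7 CPM.

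Against mock, Hist1h1a fell by 2.03 ± 0.18 on the log2 scale with EPR (adjusted p = 1.5e-06) and by 7.59 ± 0.31 with EPRSTOPE (adjusted p = 1.8e-09). The direct difference between EPR and EPRSTOPE was 5.56 ± 0.34 (adjusted p = 2.7e-07). Of its 31-base words 99.7% were unshared, so few of its reads could be assigned to another gene. As a share of all clustered H1 CPM, Hist1h1a took 6% ± 0.183 in mock and 5.87% ± 0.285 in EPR, but 0.139% ± 0.148 in EPRSTOPE cells. The nearest members on the chromosome, Hist1h3a and Hist1h4a, did not follow it. Hist1h3a, whose lower coordinate lies 1813 bases before that of Hist1h1a and which is read from the opposite strand, had 7.68 ± 0.41 CPM in EPR and 7.33 ± 1.29 in EPRSTOPE libraries, and Hist1h4a beyond it had 23.3 and 24.9 CPM. Hist1h1b, the other H1 gene with a called direct difference, was lower in EPRSTOPE by much less (0.54 ± 0.12).

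**Figure D3:**
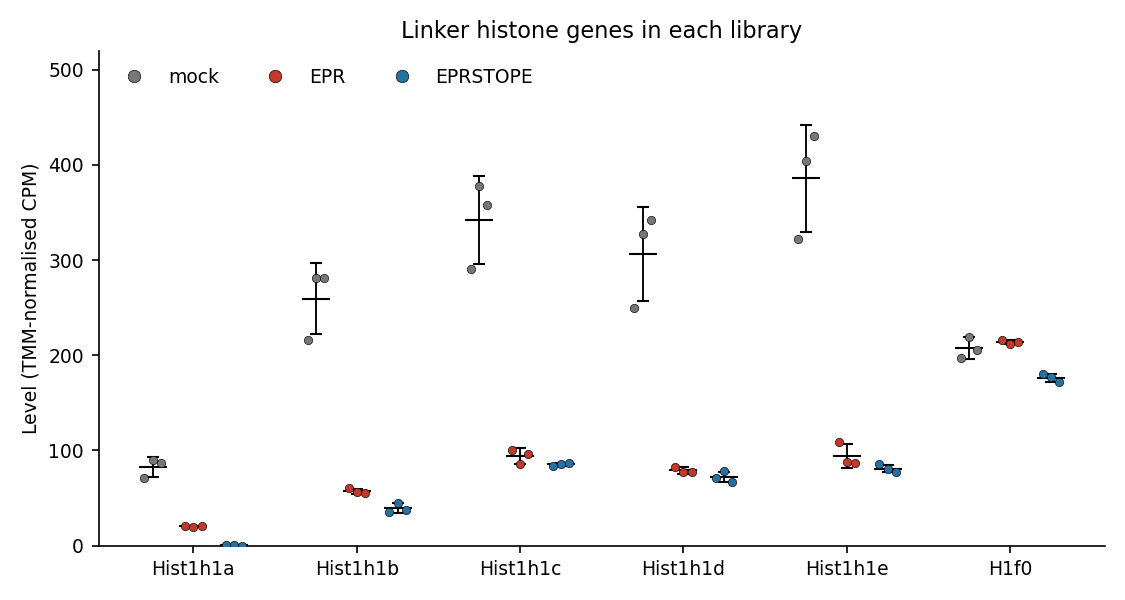
Level (y axis, TMM-normalised CPM, linear from 0) of the 5 clustered H1 genes tested and of the variant H1f0 (x axis). Each point is a library, bars and whiskers give the mean and SD of 3 libraries. Hist1h1a lies near 0 in all 3 EPRSTOPE libraries, and H1f0 stays between 171 and 219.6 CPM throughout.

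The stretches upstream of these genes are printed because the members moved together, while Hist1h1a departed from the other H1 genes with EPRSTOPE but not with EPR. RefSeq promoter entries (GRCm38.p6) matched 68 of the 77 members. Both strands of the 250 bases before the start were searched. The letters CCAAT occurred in 51 of 62 clustered genes with an entry and in 33.8% of all 32817 promoters, and TATAAA in 29 of 62 and 12.4%. AAACACA (the H1 box) occurred in 5 of 6 clustered H1 genes and 6.25%. ATTTGCAT (the octamer) occurred in 6 of 16 clustered H2B and 7 of 18 clustered H2A genes and 1.60%. Some H2A and H2B genes, such as Hist1h2ae and Hist1h2bg, have overlapping windows, so the same site can be counted for both. Hist1h2bq and Hist1h2br have the same letters upstream. These counts are therefore not of independent promoters. None of the clustered H1, H3 or H4 genes held the octamer, and 3 of 12 clustered H4 genes held CCAAT. In the sequences below, matches to these letters or their reverse complement are in capitals, and all are written 5′ to 3′ on the gene's strand. The exact letters of the H1 box are present before Hist1h1c and Hist1h1e and are not in the Hist1h1a window. Whether any of these letters bear on the levels was not tested.
Hist1h1a, chr13:23763418-23763667, plus strand: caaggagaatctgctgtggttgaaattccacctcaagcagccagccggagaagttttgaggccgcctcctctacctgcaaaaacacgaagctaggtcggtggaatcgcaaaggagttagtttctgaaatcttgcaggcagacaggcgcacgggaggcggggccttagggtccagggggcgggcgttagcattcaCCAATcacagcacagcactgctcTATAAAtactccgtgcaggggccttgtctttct
Hist1h1c, chr13:23738557-23738806, plus strand: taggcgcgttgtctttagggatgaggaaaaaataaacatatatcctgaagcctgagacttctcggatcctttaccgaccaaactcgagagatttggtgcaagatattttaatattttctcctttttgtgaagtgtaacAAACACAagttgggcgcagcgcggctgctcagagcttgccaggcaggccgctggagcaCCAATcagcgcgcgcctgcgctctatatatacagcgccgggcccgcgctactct
Hist1h1e, chr13:23622559-23622808, minus strand: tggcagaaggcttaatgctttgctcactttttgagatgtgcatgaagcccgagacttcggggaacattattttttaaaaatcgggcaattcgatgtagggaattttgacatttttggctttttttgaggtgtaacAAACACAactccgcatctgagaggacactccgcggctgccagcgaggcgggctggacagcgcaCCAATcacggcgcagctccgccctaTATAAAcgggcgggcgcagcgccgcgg
Hist1h2bb, chr13:23746484-23746733, plus strand: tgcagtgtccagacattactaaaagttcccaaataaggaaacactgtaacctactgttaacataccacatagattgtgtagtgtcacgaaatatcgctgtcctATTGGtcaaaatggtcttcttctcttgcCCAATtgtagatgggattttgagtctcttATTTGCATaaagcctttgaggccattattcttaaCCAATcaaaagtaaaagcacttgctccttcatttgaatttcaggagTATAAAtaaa
Hist1h4d, chr13:23581318-23581567, plus strand: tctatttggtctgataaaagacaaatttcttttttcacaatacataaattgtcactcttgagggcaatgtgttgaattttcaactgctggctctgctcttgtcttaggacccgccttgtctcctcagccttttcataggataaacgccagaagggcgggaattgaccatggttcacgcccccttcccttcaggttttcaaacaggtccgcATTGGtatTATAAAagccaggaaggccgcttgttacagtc
A match is a description of the letters and not of a bound site. Hist1h2bb, the H2B example with both CCAAT and the octamer, had 127, 176 and 183 CPM in mock, 41.2, 37.4 and 36.1 in EPR and 26.4, 31.8 and 27.6 in EPRSTOPE libraries. Its mock values lay far above the others, as those of Hist1h4d did.

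By location, the fall was shared by all 4 clusters. The Hist1 members lie on chromosome 13 in a block of 24 (21715763 to 22043676), a block of 31 (23531050 to 23934851) and Hist1h2al, and all 50 that were tested fell in both comparisons. Of the 9 tested genes of Hist2 (chromosome 3, 96219865 to 96270132), 5 fell with EPR and 6 with EPRSTOPE. Both tested genes of Hist3 (chromosome 11) and Hist4h4, the single gene of Hist4 (chromosome 6), fell in both comparisons. Among genes outside the 77 that lie within 500000 bases of these blocks, 1 of 8 near the Hist1 block of 24 members fell and 1 rose in each comparison (medians 0.03 with EPR and -0.22 with EPRSTOPE). Near the block of 31, 2 of 8 fell in each comparison and 0 rose (medians -0.09 and -0.62). Around Hist2, 8 of 42 fell and 4 rose with EPR, and 5 fell and 6 rose with EPRSTOPE (medians -0.10 and 0.00). Over all genes tested, 12.9% fell and 15.2% rose with EPR, and 12.4% fell and 15.6% rose with EPRSTOPE. Between EPR and EPRSTOPE, 2 of the 8 near the block of 31 were higher in EPR and 0 lower (median 0.08). Near the block of 24, 0 of 8 were called, and around Hist2, 1 of 42 was higher and 3 lower. The shares over all genes tested were 6.86% higher and 6.35% lower.

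Among the variants, H2afx stood apart from the rest by the size of its fall. H2afx, whose product is phosphorylated beside DNA breaks, had 115, 154 and 141 CPM in mock, 49.1, 43.9 and 43.5 in EPR and 37.4, 39.3 and 26.2 in EPRSTOPE libraries. Its log2 fold change was -1.59 ± 0.14 with EPR (adjusted p = 1.7e-06) and -2.00 ± 0.14 with EPRSTOPE (adjusted p = 2.7e-07), within the range of the clustered genes. It was the only variant called with EPR, beside 12.9% of all genes tested that fell. With EPRSTOPE, 3 of the 7 variants fell (H2afx, H3f3a and H2afz), beside 12.4% of all genes tested.

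H3f3b, which with H3f3a encodes the replacement H3, had 423, 448 and 441 CPM in mock, 424, 400.3 and 431 in EPR and 438, 441 and 423 in EPRSTOPE libraries. All groups overlapped, and the log2 fold changes were -0.06 ± 0.05 and -0.01 ± 0.05. H3f3a had 248, 268 and 275 CPM in mock, 217, 209.9 and 209.8 in EPR and 176, 184 and 194 in EPRSTOPE libraries, without overlap. The fall was called with EPRSTOPE (-0.51 ± 0.06, adjusted p = 2.1e-05), while the value of -0.31 ± 0.06 with EPR had an adjusted p of 0.001 but lay under the fold threshold. H2afz, an H2A variant found at active promoters, fell with EPRSTOPE (-0.70 ± 0.14), and had -0.34 ± 0.13 with EPR (adjusted p = 0.0526). Its libraries were at 181, 236 and 238 CPM in mock and at 163, 158 and 195 in EPR, which overlap, and at 152, 142 and 109 in EPRSTOPE.

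H1f0, the linker histone of resting and differentiated cells, had 197, 219.6 and 206 CPM in mock, 216, 212 and 214 in EPR and 180.4, 177 and 171 in EPRSTOPE libraries. Its log2 fold change was 0.04 ± 0.06 with EPR and -0.24 ± 0.06 with EPRSTOPE, neither called. H2afy, which encodes macroH2A, had -0.09 ± 0.06 and -0.25 ± 0.06, and H2afv, a close relative of H2afz, 0.16 ± 0.13 and -0.29 ± 0.14, again not called. Signs this near 0 depend on the scale: as log2 ratios of group means, without TMM the H1f0 value with EPR became -0.04, and in TPM the H2afv value became -0.16. Larger shifts came with TPM, where H2afy went to -0.64 with EPR and -0.74 with EPRSTOPE, H2afz to -0.67 and -0.89, H3f3a to -0.54 and -0.70, and H2afv to -0.81 with EPRSTOPE. Without TMM the median of all genes tested shifted to -0.16 with EPRSTOPE, and in TPM to -0.18 with EPR and -0.16 with EPRSTOPE.

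The variants other than H2afx took a larger part of their class in both kinds of transfectant, as their own TPM differed from mock by less than that of the clustered genes. H3f3a and H3f3b together took 22.3%, 18.4% and 18.4% of the H3 TPM in mock, 48.7%, 52.2% and 50.9% in EPR and 51.2%, 56.2% and 54.5% in EPRSTOPE libraries. H1f0 accounted for 6.82% ± 0.397 of H1 TPM in mock, against 27.1% ± 1.47 with EPR and 29.7% ± 2.75 with EPRSTOPE. H2afz with H2afv went from 7.09% ± 0.292 of H2A TPM to 19.2% ± 1.24 and 21% ± 1.72. Mock values overlapped with no other value in these 3 shares. The H2afx share changed less, from 1.81% ± 0.197 in mock to 2.34% ± 0.0935 in EPR and 2.46% ± 0.828 in cells with EPRSTOPE. Every EPR library lay above every mock library, while the lowest EPRSTOPE library (1.5%) lay under all mock libraries. These are shares of mRNA, in which long transcript models such as that of Hist1h1d (7425 bases) lower a gene's TPM.

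**Figure D4:**
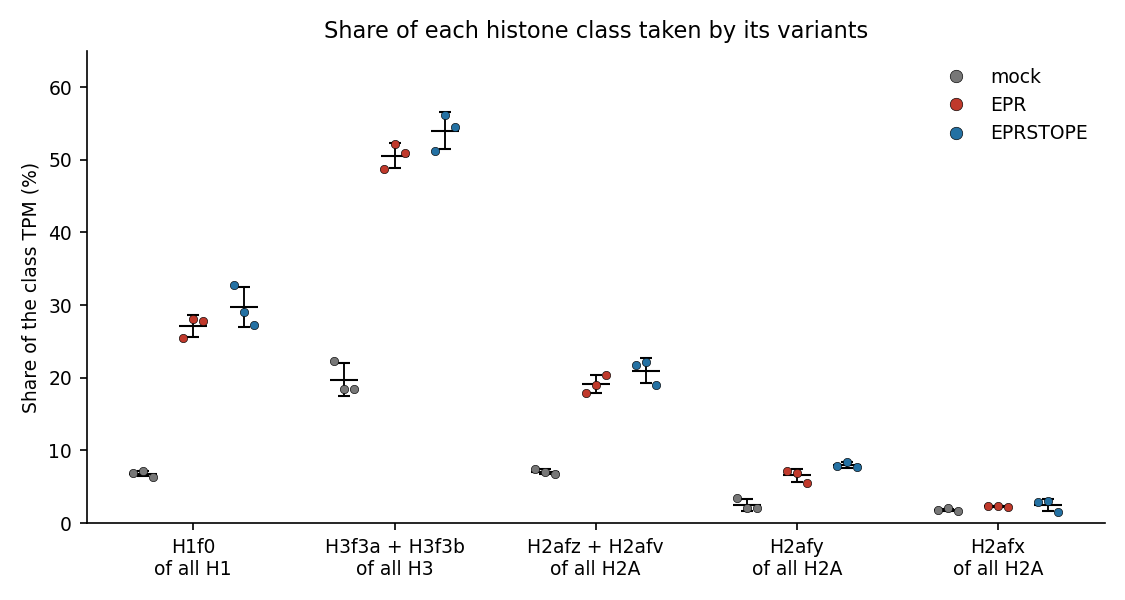
Share of the summed TPM of a histone class that its variants took (y axis, percent, linear from 0) for 5 variants or pairs (x axis). Points are libraries, bars and whiskers the mean and SD of 3 libraries. The H3f3a and H3f3b share lies between 18.4% and 22.3% in mock and between 48.7% and 56.2% in the other libraries.

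The direct comparison of EPR with EPRSTOPE, which differ in the stop codon and in the level of the EPR RNA, found smaller differences. Of the 62 clustered genes tested, 6 were higher in EPR and 0 lower, with a median of 0.35 beside 0.01 over all genes tested, where 6.86% of all genes were higher and 6.35% lower. Besides Hist1h1a and Hist1h1b, these were Hist1h2bn (0.84 ± 0.12), Hist3h2a (0.81 ± 0.17), Hist1h2bm (0.60 ± 0.15) and Hist1h3c (0.56 ± 0.13). Hist1h2bn had 42.9, 38 and 41.1 CPM in EPR and 20.7, 24.3 and 23 in EPRSTOPE libraries, which do not overlap. Only 12% of the words of Hist1h2bn are unshared, so reads of other genes of its class can be assigned to it. None of the 7 variants was called in this comparison, with a median of 0.28. The count of 6 was unstable. It became 11 without mock library 203, 2 without EPR library 206, 3 without EPR library 207 and 2 without EPRSTOPE library 211. Calls for Hist1h1a and Hist1h2bn held when each of the 9 libraries was left out, and those for the other 4 were lost in 4 to 7 of the 9 cases. Leaving out a library does not test how reads were divided between close copies such as Hist1h2bn.

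The genes that make and place histones moved less than the histones. Of all genes tested, 12.9% fell and 15.2% rose with EPR, and 12.4% fell and 15.6% rose with EPRSTOPE. Of 18 genes for histone mRNA 3′ processing and the histone locus body, 6 fell with EPR (median -0.32) and 0 with EPRSTOPE (median -0.09), where 1, Mif4gd, rose by 0.59. Slbp itself had 67.6, 71.5 and 84.1 CPM in mock, 53.1, 48.6 and 54.6 in EPR and 83.5, 82 and 80 in EPRSTOPE libraries. Its level was thus lower with EPR (-0.52 ± 0.08, called) and overlapped with mock in EPRSTOPE (0.13 ± 0.08). Lsm11, of the U7 particle that processes histone mRNA, fell by 0.96 ± 0.14 with EPR and had -0.43 ± 0.14 with EPRSTOPE. Between the transfectants, 4 of the 18 were lower in EPR, beside 6.35% of all genes tested. Among the 4 were Casp8ap2 (-0.72) and Slbp (-0.65). Of 26 histone chaperones and deposition factors, 12 fell and 2 rose with EPR, and 6 fell and 2 rose with EPRSTOPE. Nasp, a chaperone of soluble H3 and H1, fell by 1.25 ± 0.06 and 0.70 ± 0.06, and Chaf1a, of the factor that deposits histones at forks, fell by 1.13 ± 0.09 with EPR and had -0.23 ± 0.09 with EPRSTOPE. With EPRSTOPE the largest falls were in Nap1l1 (-0.83) and Hjurp (-0.81), the latter the chaperone of the centromere histone Cenpa. Tonsl, which binds newly made H4 at forks, rose by 0.64 and 0.98.

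The 47 genes of DNA replication and S phase stood in another order. With EPR, 41 fell and 1 rose (median -0.95), and with EPRSTOPE, 19 fell and 5 rose (median -0.38). The shares over all genes tested were 12.9% and 15.2% with EPR, and 12.4% and 15.6% with EPRSTOPE. The summed level of the 47 genes was 4897 to 5073 CPM in mock, 2531 to 2591 in EPR and 3827 to 4048 in EPRSTOPE libraries. Directly between EPR and EPRSTOPE, 30 of the 47 were lower in EPR and 1 higher (median -0.62), beside 6.35% and 6.86% of all genes tested. The clustered histone genes had a median of 0.35 in the same comparison. Rrm2, a subunit of ribonucleotide reductase, fell by 1.82 ± 0.06 and 1.01 ± 0.06, and Mcm10, of the replication start machinery, by 1.71 and 0.85. Cdc6, which loads the replicative helicase, had 28.2, 27.9 and 28.2 CPM in EPR and 96.9, 92 and 81.2 in EPRSTOPE libraries, a difference of -1.68 ± 0.08. The gene higher in EPR was Ccna2, the cyclin of S phase and G2, which fell by 1.36 ± 0.06 with EPR and 2.05 ± 0.06 with EPRSTOPE. The cyclin E gene Ccne1 rose with EPRSTOPE (1.48 ± 0.15) and E2f2 rose in both (2.52 and 2.78).

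**Figure D5:**
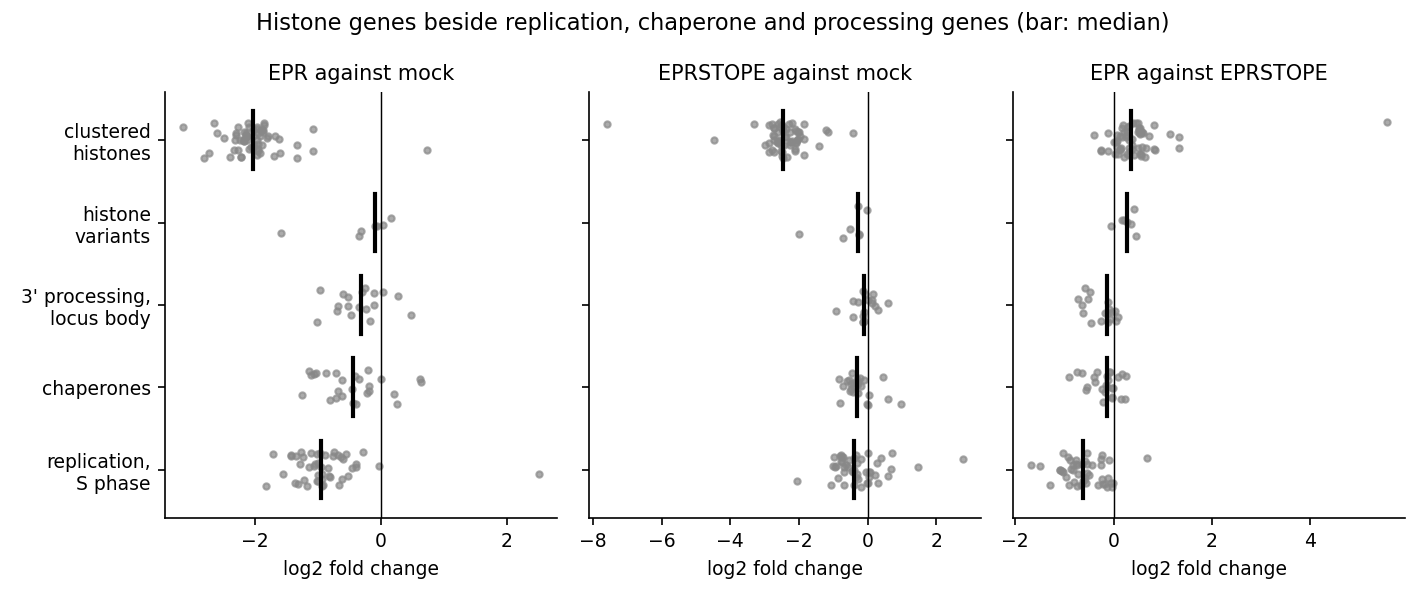
Fitted log2 fold change (x axis, with its own range in each panel) of the tested genes of 5 lists (y axis) in the 3 comparisons. Each point is a gene and the black bar the median of its list. The clustered histones lie lowest against mock, while between EPR and EPRSTOPE their median is 0.35 and that of the replication genes -0.62.

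Other histone genes that the name rule left out numbered 11, of which 5 were tested. H2afj, a replication-independent H2A gene, rose by 0.63 ± 0.10 with EPR and 0.66 ± 0.11 with EPRSTOPE. H2afy2, a macroH2A gene, fell by 1.93 and 1.75, and the linker gene H1fx by 2.50 and 1.78 from a low level. Cenpa, the H3 of centromeres, had 63.1, 66.5 and 58.4 CPM in mock, 40.1, 38.5 and 34.2 in EPR and 15.2, 11.9 and 12.4 in EPRSTOPE libraries. Cenpa thus fell in both and was higher in EPR than in EPRSTOPE by 1.53 ± 0.11.

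Markers of cell state moved with the groups too. The defining epithelial gene Cdh1 was at 0.311 to 1.16 CPM in mock, 542 to 569 in EPR and 381 to 427 in EPRSTOPE libraries, so mock cells nearly lacked it. Epcam was at 0 in all mock libraries, and Cldn7 and Esrp1 lay under 1 CPM on average in every group. In sum, the 10 epithelial markers reached 3704 to 4171 CPM in mock, 9535 to 10641 in EPR and 10706 to 11045 in EPRSTOPE libraries, mostly from Krt8 and Krt18. Of the 8 tested, 8 rose with EPR and 5 with EPRSTOPE, beside 15.2% and 15.6% of all genes tested. The 12 mesenchymal markers summed to 3980.3 to 4156 CPM in mock, 2182 to 2413 in EPR and 3912 to 4261 in EPRSTOPE libraries, with Acta2 lower in both (-3.08 and -3.54), Pdgfra higher in both from 0 in mock, and Twist1 at 0 throughout. Fn1 and Vim were lower in EPR than in EPRSTOPE (-1.05 and -0.83), and Cdh2 fell with EPRSTOPE (-1.06). The 6 immune and endothelial markers stayed between 13.1 and 18.6 CPM in sum. The part of these differences in the histone levels was not tested.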

How the data were processed

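Per the labels, total RNA was made into TruSeq Stranded Total RNA libraries and read as 75-base pairs (the study's methods name another Illumina protocol). The authors quantified them with kallisto 0.43.1 on Gencode transcripts (GRCm38.p5), and the deposited files hold estimated counts and TPM per transcript. Here estimated counts were summed per symbol, rounded, TMM-normalised and tested with edgeR 4.0.16 (R 4.3.3) in a model of 3 groups over all 9 libraries, after a filter of at least 1 CPM in at least 3 libraries. SE is the log2 fold change over the square root of F. The code was checked on simulated data. Class sums, shares and gene lists have no test. Named genes were the 7 variants, the 3 most abundant clustered genes per class, the 5 largest called changes each way per comparison, and the 2 largest each way per other list. The members and lists were chosen with earlier results of these data known. Positions are from Gencode M21. Transcripts of matching ID and length numbered 127421 of 131100, and H1f0 was not among them. DESeq2 1.42.0, limma 3.58.1 and other scalings, filters and thresholds were alternatives. Replicate libraries of a group differed by more than sampling noise (chi-square per degree of freedom 4.63 to 9.59). Whether poly(A)-lacking mRNA was retained equally was not measured.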

Additional observations from a re-analysis of the deposited data

Results flagged for a closer look

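In 6 of the 69 histone genes tested, the change from mock differed between EPR and EPRSTOPE by the direct edgeR test. All 6 were higher in EPR, beside 6.86% of all genes tested, so the count is near the general share. The 2 changes share the mock libraries. The log2 fold change of EPR against EPRSTOPE was 5.56 for Hist1h1a, 0.84 for Hist1h2bn, 0.81 for Hist3h2a, 0.60 for Hist1h2bm, 0.56 for Hist1h3c and 0.54 for Hist1h1b. All 6 fell against mock in both comparisons. Hist1h1a stayed between 4.93 and 7.07 over the 17 alternatives that gave a value and was called in each of them. Hist1h2bn was called in 17 of 18, the exception being the fold threshold of 1. Only 12% of the words of Hist1h2bn are unshared, and the division of reads between genes was not tested. The calls for Hist3h2a, Hist1h2bm, Hist1h3c and Hist1h1b held in only 4, 2, 4 and 5 of the 9 cases with 1 library left out.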

How the results depend on the processing

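Against mock, the number of clustered genes that fell stayed within 1.5 times its value under every alternative run. Leaving out 1 library gave 57 to 60 of them with EPR and 58 to 60 with EPRSTOPE, and 0 rose. Variants that fell with EPRSTOPE numbered 3 of 7, beside 12.4% of all genes tested. The number was 2 to 3 without 1 library, and 1 in tests of transcripts or with a fold threshold of 1. With EPR it was 1 throughout the libraries left out. For EPR against EPRSTOPE, the 6 clustered genes higher in EPR became 11 with DESeq2, with at least 10 counts in every library and with the 6 libraries compared alone, 2 with limma-voom, 23 without a filter (where 2 were lower), 3 with counts scaled from TPM, 1 by transcripts or with a fold threshold of 1, 14 at an adjusted p under 0.05, and 2 to 11 without 1 library.

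Log2 ratios of the clustered sums ranged over -2.16 to -1.93, -2.51 to -2.27 and 0.26 to 0.41 (EPR, EPRSTOPE and direct) without 1 library, and those of the variants over -0.28 to -0.20, -0.42 to -0.35 and 0.12 to 0.17. In TPM the EPRSTOPE ratio of the clustered genes was -2.66, and the variants' ratios were -0.53, -0.62 and 0.085. Without TMM the variants' EPRSTOPE ratio was -0.50. Of 1773 values of single genes under alternatives, 1710 kept their call or lack of one, 49 lost the call and 14 gained it. A reversal of sign was counted only where either setting called the gene, and there were 0. Sign changes of values called in neither setting are among the 1710. The causes were not tested. No paired analysis was possible because the library numbers are not shared between groups. Depth limits the scarce genes, and 3 counts are worth 0.253 to 0.502 CPM.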
